A study of Mus musculus with 12 samples.

Results

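Nfe2l2 encodes the transcription factor NRF2, Keap1 encodes the protein that holds NRF2 in check, and 8 genes with known roles in antioxidant defence and detoxification, Nqo1, Gclc, Gclm, Hmox1, Srxn1, Osgin1, Ephx1 and Slc7a11, are counted among the targets of NRF2. These 10 genes were listed by name, with earlier results of these data known, out of the 24795 genes in a table of liver RNA counts. Liver RNA was sequenced from male mice of 2 genotypes, wild-type (WT, C57BL6/N) and Scly KO, which lack the gene for selenocysteine lyase, an enzyme that frees selenium from selenocysteine for reuse. Each genotype was fed from weaning, for at least 8 weeks, either 0.08 ppm (low, LS) or 0.25 ppm (adequate, MS) of selenium as sodium selenite. The 4 groups held 3 libraries each, named S1 to S12 as in the count table: WT LS (S1 to S3), WT MS (S4 to S6), KO MS (S7 to S9) and KO LS (S10 to S12). The Scly KO mice came from a homozygous colony and the WT mice were purchased C57BL/6N stock bred in-house, so genotype and colony cannot be told apart. The sources give replicate livers for each group but do not state in words that each library is a separate mouse, so the p-values cover the spread from library to library, part of which may be technical.

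NRF2 is made continuously and, in an unstressed cell, is bound by KEAP1, which hands it to a ubiquitin ligase for destruction. Oxidants and electrophiles react with cysteines of KEAP1, NRF2 then builds up in the nucleus, and, paired with a small MAF protein, it binds antioxidant response elements near genes for glutathione synthesis, quinone and epoxide detoxification and the repair of oxidised peroxiredoxins. In the liver the pathway is known for defence against drugs, bile acids and lipid peroxides. The main step, the stability of the NRF2 protein, leaves no direct mark on RNA, and these data hold the RNA of the regulators and of the targets.

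The total of estimated counts per library ranged from 4797067 to 11762165, and CPM below are counts per 1e+06 counts after normalization by TMM. Scly, the deleted gene, lay between 73.1 and 105 CPM in the 6 WT libraries and between 4.84 and 6.90 CPM in the 6 Scly KO libraries, so no library went against its genotype label. The summed level of 8 hepatocyte markers was between 70500 and 115000 CPM in 11 libraries and 62300 CPM in S12. S12, a KO LS library, stood apart: its mean Spearman correlation with the other libraries was 0.873, against 0.912 to 0.964 for the other 11. It was above each of the other libraries for 26.1% of the tested genes. The 10 bile duct markers, which include Epcam and Sox9, summed to 318 CPM in S12 and to between 29.8 and 47.6 elsewhere, each of the 10 was highest in S12, and none was at 0 there. The 9 pericentral hepatocyte markers summed to 1440 CPM in S12 and to between 4820 and 8740 elsewhere, and the 9 stellate cell and fibroblast markers to 859 CPM in S12 (6 of the 9 highest there) and to between 232 and 608 elsewhere. In the KO MS libraries S7 and S8 the ribosomal RNA precursor Rn45s took 16.99% and 19.86% of the counts, against 2.447% to 9.23% in the other libraries, and their Kupffer cell and macrophage markers summed to 616 and 483 CPM, against 287 to 515. Where leaving out S12, or S7 and S8, turned the direction of a member's log2 fold change printed below, the value without them is given. Some other values that moved are given as well.

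Of the 10 genes, 9 had enough counts to be tested and Slc7a11 did not. After adjustment over all 12009 tested genes, edgeR's quasi-likelihood test called 0 of the 9 in any of 6 comparisons: the genotypes on low selenium, the genotypes on adequate selenium, the genotypes averaged over diets, the diets in WT, the diets in Scly KO, and the genotype by diet interaction. Among all tested genes the test called 0.00833% in each of the first 3 (Scly itself) and 0% in the other 3, so a count of 0 members is no different from the background. DESeq2, which gave Srxn1 no p-value, called 0 of the 8 other members (in the diet comparison of Scly KO, 0 of the 4 to which it gave an adjusted p) and 0.391%, 0.025%, 0.225%, 0.0167%, 1.07% and 0% of all genes, in the same order. The counts at an unadjusted p under 0.05 are given below, each beside the share of all genes that passed it, except for the counts under alternative settings in the closing section. In bulk liver, fewer cells of a type and less RNA per cell cannot be told apart.

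**Figure D1:**
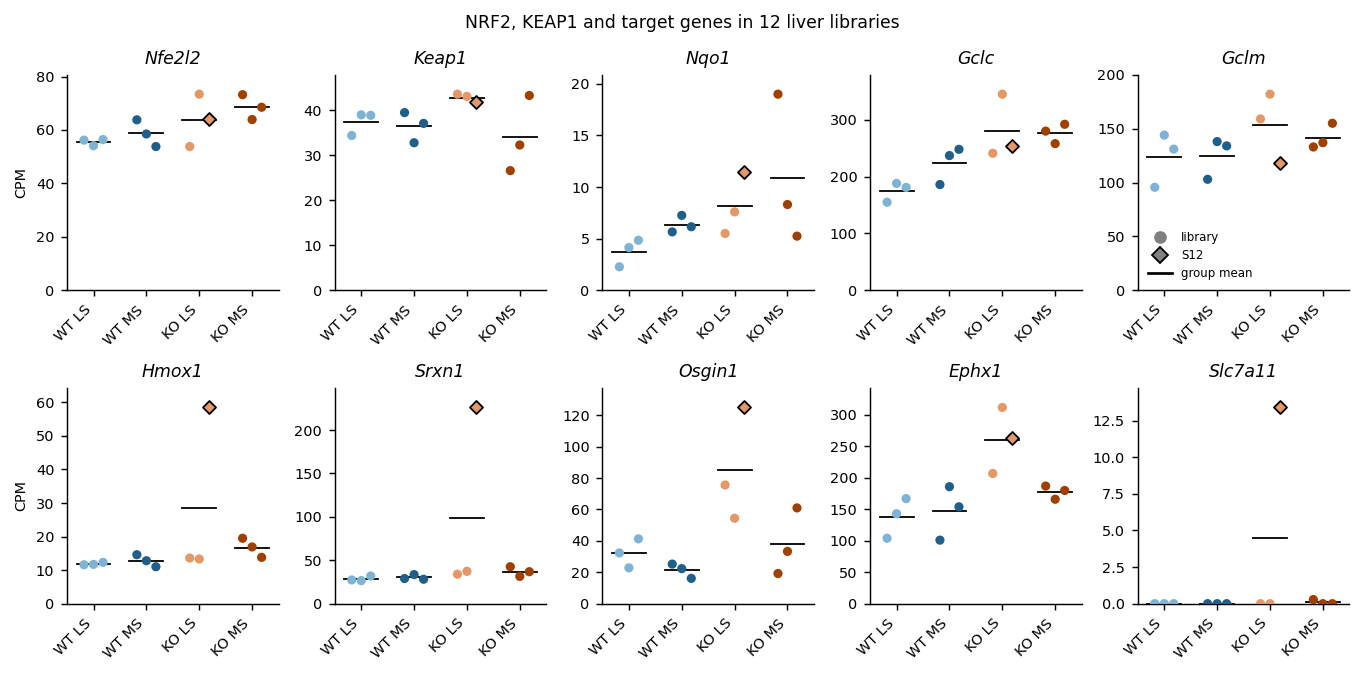
CPM of each of the 10 genes (y axis, linear, from 0) in the 12 libraries, grouped by genotype and diet (x axis). Points are libraries, the black-edged diamond is S12 and bars are group means. Gclc and Ephx1 are higher in all 3 KO LS libraries than in all 3 WT LS libraries, whereas for Hmox1, Srxn1 and Slc7a11 S12 is at 58.5, 226 and 13.4 and the other KO LS libraries are near WT.

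For 8 of the 10 genes the reference held the RefSeq window of 300 bases around the start (250 before it and 50 after it, GRCm38.p6): Nfe2l2, Keap1, Nqo1, Gclm, Srxn1, Osgin1, Ephx1 and Slc7a11. They were searched on both strands for TGACNNNGC, the core of the antioxidant response element. It was present in 3 of the 8, Nfe2l2, Gclm and Srxn1, and in 12.4% of the 32851 windows of all genes. A match is a run of letters and not a shown binding site. Bases outside the window were not searched, so a window without a match does not show that a gene lacks an element. The 7-base word TGACTCA, the AP-1 site that many response elements contain, was searched after the sequences had been seen. It was present in Srxn1 and Osgin1, that is in 2 of the 8, and in 5.2% of all windows. Gclm is shown as 1 of the 2 windows with a core and without the 7-base word (in the other, Nfe2l2, the core began 240 bases before the start), and Srxn1 and Osgin1 because they had the 2 highest fold changes between the genotypes on low selenium. In Gclm the core began 134 bases before the start. In Srxn1 the 7-base word began 102 and 45 bases before the start and the core 28 bases after it, and in Osgin1 the 7-base word began 97 bases before the start. Capitals mark the core or the word, as it reads on the gene's strand or as its reverse complement, and no match overlaps another. The windows lie at chr3:122245307-122245606, chr2:152105274-152105573 and chr8:119436897-119437196, all on the plus strand.
Gclm: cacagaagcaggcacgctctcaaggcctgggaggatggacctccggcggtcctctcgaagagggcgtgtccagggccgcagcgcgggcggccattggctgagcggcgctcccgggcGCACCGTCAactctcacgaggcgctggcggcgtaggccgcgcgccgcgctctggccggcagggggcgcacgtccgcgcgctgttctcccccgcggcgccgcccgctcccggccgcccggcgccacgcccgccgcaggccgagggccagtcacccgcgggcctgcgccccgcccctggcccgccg
Srxn1: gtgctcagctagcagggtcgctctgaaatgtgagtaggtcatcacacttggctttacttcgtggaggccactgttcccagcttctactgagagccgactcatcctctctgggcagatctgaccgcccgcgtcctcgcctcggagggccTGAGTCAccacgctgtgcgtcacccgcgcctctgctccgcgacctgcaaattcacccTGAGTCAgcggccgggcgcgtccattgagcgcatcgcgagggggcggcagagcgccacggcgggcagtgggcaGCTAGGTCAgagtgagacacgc
Osgin1: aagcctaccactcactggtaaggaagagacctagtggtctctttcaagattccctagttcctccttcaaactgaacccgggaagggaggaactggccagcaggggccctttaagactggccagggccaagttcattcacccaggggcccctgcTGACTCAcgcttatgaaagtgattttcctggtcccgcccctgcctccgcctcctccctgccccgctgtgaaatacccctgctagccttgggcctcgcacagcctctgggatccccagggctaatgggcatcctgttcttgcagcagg

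The 2 regulators had the smallest fold changes of the 9 tested members on low selenium. Nfe2l2 (chromosome 2, 75675513 to 75704663 of mm10) was at 56.2, 54.1 and 56.4 CPM in WT LS, 63.8, 58.5 and 53.8 in WT MS, 53.8, 73.4 and 64.0 in KO LS and 73.2, 63.9 and 68.5 in KO MS. All 3 KO MS libraries were above all 3 WT MS libraries, by a narrow gap, and on low selenium the groups overlapped. Its log2 fold change in KO over WT was 0.20 (SE 0.189) on low and 0.22 (SE 0.188) on adequate selenium, with adjusted p of 0.621 and 0.999 from edgeR. Keap1 (chromosome 9, 21229730 to 21239332) was at 34.4, 39.0 and 38.9 CPM in WT LS and at 43.6, 43.1 and 41.8 in KO LS. In WT MS it was at 39.5, 32.8 and 37.1 CPM and in KO MS at 26.6, 32.3 and 43.3. All 3 KO LS libraries thus lay above all WT LS libraries, whereas KO MS spanned the whole range of WT MS. The log2 fold change of Keap1 was 0.19 (SE 0.205) on low and -0.095 (SE 0.206) on adequate selenium, and the latter was 0.24 without S7 and S8. With the dependence on transcript length and GC taken out of each library, the value on low selenium turned to -0.084.

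Glutathione is built in a first, limiting step by glutamate cysteine ligase, whose catalytic subunit is encoded by Gclc and whose modifier subunit by Gclm. Gclc (chromosome 9, 77754535 to 77794489) was at 155, 188 and 181 CPM in WT LS, 186, 237 and 248 in WT MS, 241, 345 and 253 in KO LS and 280, 258 and 292 in KO MS. The libraries of KO were above those of WT without overlap on each diet. Across diets the highest WT library was at 248 and the lowest KO library at 241, so the 2 genotypes met at the edge. In KO over WT the log2 fold change was 0.68 (SE 0.228) on low selenium, 0.31 (SE 0.227) on adequate selenium and 0.49 (SE 0.161) averaged over both, with adjusted p of 0.439, 0.999 and 1 from edgeR. Without S12 the value on low selenium was 0.72, as large as with it. Gclm (chromosome 3, 122245557 to 122267215) was at 95.6, 144 and 131 CPM in WT LS, 103, 138 and 134 in WT MS, 159, 182 and 118 in KO LS and 133, 137 and 155 in KO MS. The groups overlapped on both diets, and S12 was the lowest KO library. On low selenium the log2 fold change of Gclm was 0.30 (SE 0.240), and 0.44 without S12, with adjusted p of 0.557 and 0.758 from edgeR. Per kb of exon, the scale on which genes can be set side by side, Gclc was at 52.9 ± 9.48 and Gclm at 19.8 ± 3.20 CPM per kb (SD, n = 6) in WT.

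Slc7a11 (chromosome 3, 50364936 to 50443613) encodes the cystine carrier subunit that supplies cysteine for glutathione, and it was not detectable at this depth in most libraries. It had 0 counts in 10 of the 12 libraries, 2 counts in S7 (0.276 CPM) and 241 counts in S12 (13.4 CPM). A count of 0 allows up to 3 counts, which is between 0.271 and 0.683 CPM in these 10 libraries, and S12 was at least 19.7-fold higher than the largest of these limits. The limits cover counting error only. Both other KO LS libraries were at 0, so this level is that of 1 library. Slc3a2, the heavy chain that Slc7a11 pairs with, was at 133 CPM in S12 and between 17.4 and 27.9 in the other 11.

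The quinone and epoxide detoxification genes differed in how steady they were. Nqo1 (chromosome 8, 107388225 to 107403205), which encodes a quinone reductase and is often used as a readout of NRF2, was low throughout. It was at 2.28, 4.14 and 4.85 CPM in WT LS, 5.66, 7.26 and 6.16 in WT MS, 5.51, 7.60 and 11.5 in KO LS and 19.0, 8.31 and 5.25 in KO MS. KO LS lay above WT LS without overlap, KO MS and WT MS overlapped, and the highest value was that of S7. On low selenium the log2 fold change was 1.10 (SE 0.452), with an adjusted p of 0.439 from edgeR, and 0.74 without S12. On adequate selenium it was 0.76 (SE 0.436), and -0.29 without S7 and S8, where S9 alone stands for KO MS and is taken to vary as much as other groups. Ephx1 (chromosome 1, 180989556 to 181017569), the gene of microsomal epoxide hydrolase, was at 104, 143 and 167 CPM in WT LS, 101, 186 and 154 in WT MS, 207, 312 and 263 in KO LS and 187, 166 and 180 in KO MS. All 3 KO LS libraries were above all 9 others, and KO MS lay within or just above the range of WT MS. For Ephx1 the log2 fold change on low selenium was 0.92 (SE 0.275), with an adjusted p of 0.439 from edgeR, and 0.89 without S12. On adequate selenium it was 0.27 (SE 0.273).

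Heme oxygenase 1, encoded by Hmox1 and known for breaking down heme, and sulfiredoxin, encoded by Srxn1 and known for restoring overoxidised peroxiredoxins, differed mostly in S12. Hmox1 (chromosome 8, 75093618 to 75100593) was at 11.6, 11.7 and 12.3 CPM in WT LS, 14.6, 12.8 and 11 in WT MS, 13.6, 13.3 and 58.5 in KO LS and 19.5, 16.9 and 13.8 in KO MS. S12 was 3.01 times the next highest library. The log2 fold change of Hmox1 on low selenium was 1.27 (SE 0.468), and 0.15 without S12. Srxn1 (chromosome 2, 152105524 to 152111376) was at 27.3, 26.5 and 31.9 CPM in WT LS, 28.9, 33.5 and 28.1 in WT MS, 33.9, 37.2 and 226 in KO LS and 42.5, 31.4 and 36.8 in KO MS. S12 was 5.31 times the next highest library, the largest such ratio among the 9 tested members. Its log2 fold change on low selenium was 1.80 (SE 0.563), and 0.29 without S12. S10 and S11 were still above the highest WT LS library for both genes, but by a small step, and the same holds for S7 and S9 against WT MS for Srxn1.

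Osgin1 (chromosome 8, 119437162 to 119446256), an oxidative stress induced gene linked to growth inhibition, had the smallest p of the members in the comparison averaged over diets. It was at 32.3, 22.8 and 41.3 CPM in WT LS, 25.2, 22.3 and 16.1 in WT MS, 75.6, 54.4 and 125 in KO LS and 19.2, 33.3 and 61.0 in KO MS. Every KO LS library was above every WT library, while KO MS ran from within the WT range to above it. Its log2 fold change was 1.40 (SE 0.409) on low selenium, 0.84 (SE 0.408) on adequate selenium and 1.12 (SE 0.289) averaged over diets. The adjusted p averaged over diets was 0.671 from edgeR, 0.0752 from DESeq2 and 0.0296 from limma-voom with sample quality weights. Without S12 the value was 0.91, with an adjusted p of 0.851 from edgeR, and without S7 and S8 it was 1.44, with an adjusted p of 0.167. On adequate selenium it was 0.30 without S9 and 1.52 without S7 and S8, where S9 alone stands for KO MS.

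Set side by side, all 9 tested members had a log2 fold change above 0 between the genotypes on low selenium, where 54.2% of all genes did, with a median of 0.92 against 0.055 over all genes. At an unadjusted p under 0.05 from edgeR, 6 of 9 were higher, Nqo1, Gclc, Hmox1, Srxn1, Osgin1 and Ephx1, against 5.78% of all genes. In 7 of 9 the KO LS libraries lay wholly above the WT LS libraries, as in 13.2% of all genes. Without S12 all 9 were still above 0, where 49.4% of all genes were, but 3 were higher at an unadjusted p under 0.05, Gclc, Osgin1 and Ephx1, against 2.02% of all genes, and the median was 0.44. With S10 and S11 alone, 8 of 9 lay above all 3 WT LS libraries, as in 19.6% of all genes. S12 was the highest library in 3 of 9 members, Hmox1, Srxn1 and Osgin1, against 26.1% of all genes, and over 2 times each other library in 2 of 9, Hmox1 and Srxn1, against 4.08% of all genes. limma-voom called 0 of 9 on low selenium and 0.749% of all genes.

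On adequate selenium 8 of 9 had a log2 fold change above 0, where 54.8% of all genes did, with a median of 0.29 against 0.031. At an unadjusted p under 0.05 from edgeR 0 of 9 were higher, against 0.516% of all genes, and 1 without S12 (Osgin1), against 1.05%. In 2 of 9, Nfe2l2 and Gclc, KO MS lay wholly above WT MS, as in 2.26% of all genes. limma-voom called 0 of 9 and 7.54% of all genes. Averaged over diets all 9 were above 0, where 55.8% of all genes were, with a median of 0.60, and 6 of 9 were higher at an unadjusted p under 0.05, against 2.46% of all genes. That count was 4 without S12 (Nqo1, Gclc, Osgin1 and Ephx1), against 1.57% of all genes. No member had all 6 KO libraries above all 6 WT libraries, which 0.117% of all genes had. limma-voom called 1 of 9, Osgin1, and 0.566% of all genes. Over 11862 genes the fold change also ran with transcript length (Spearman's rho 0.345 on low and -0.149 on adequate selenium, across genes, which are not replicates). With the trend over length and GC content removed, the log2 fold change on low selenium was 1.55 for Nqo1 and 0.67 for Gclc, and Keap1 was below 0.

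**Figure D2:**
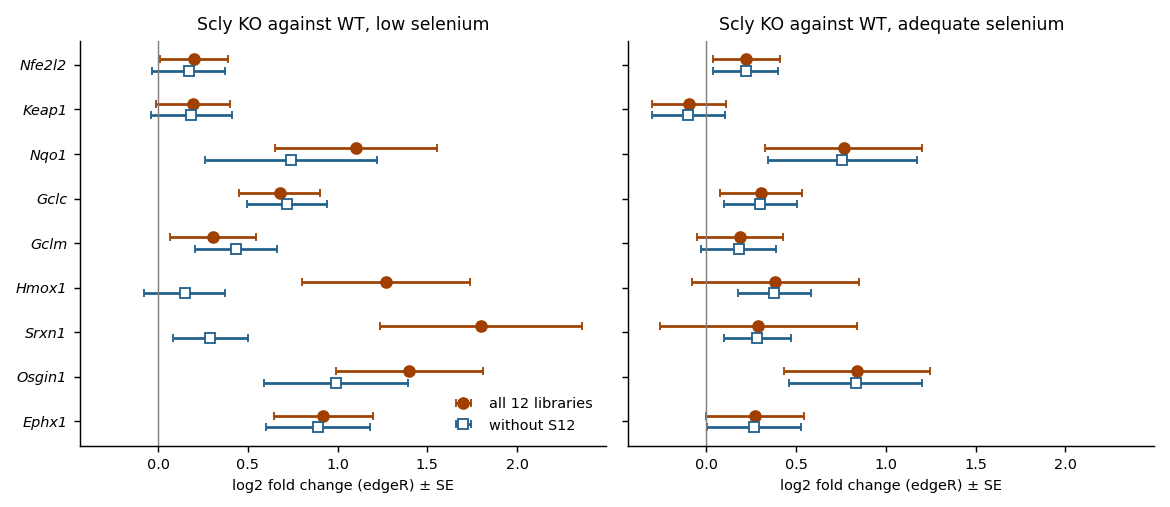
Log2 fold change of Scly KO against WT from edgeR (x axis, bars ± 1 SE) for the 9 tested members (y axis) on low (left) and adequate selenium (right), with all 12 libraries (filled circles) and without S12 (open squares). Without S12, Hmox1 goes from 1.27 to 0.15 and Srxn1 from 1.80 to 0.29 on low selenium, while Gclc, Ephx1 and Gclm move by less than 1 SE.

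For diet in WT no member passed a threshold from edgeR. Low against adequate selenium in WT gave 2 of 9 members above 0, where 51.8% of all genes were, and 0 of 9 were higher or lower at an unadjusted p under 0.05 from edgeR, against 1.14% and 1.15% of all genes. The log2 fold change in WT was -0.73 (SE 0.459) for Nqo1, -0.36 (SE 0.227) for Gclc and 0.60 (SE 0.410) for Osgin1. Nqo1 was lower in all 3 WT LS than in all 3 WT MS libraries, the 1 member of 9 with such a gap, as in 6.47% of all genes. limma-voom called 0 of 9 in this comparison and 0.15% of all genes. In Scly KO, 7 of 9 members were above 0 on low selenium, where 53.3% of all genes were. At an unadjusted p under 0.05 from edgeR, 2 of 9 were higher, Srxn1 at a log2 fold change of 1.43 (SE 0.554) and Osgin1 at 1.16 (SE 0.405), against 9.24% of all genes, and 0 were lower, against 12.7%. Without S12 it was 0 of 9, against 3.06% of all genes, and 5 of 9 were above 0, where 49.2% of all genes were. Srxn1 was then at -0.066 and Hmox1 at -0.33, from 0.78 (SE 0.458) with S12. Osgin1 was at 0.77 without S12, 0.47 without S7 and S8 and 0.087 without S7, S8 and S12. Ephx1 was at 0.55 (SE 0.273) and Nqo1 at -0.39 (SE 0.426), the latter with S7 as its highest library. Only Ephx1 lay in KO LS wholly above KO MS, a gap that 5.51% of all genes had. limma-voom called 3 of 9, Keap1, Osgin1 and Ephx1, but also 49.9% of all genes, and a share of 3 of 9 is not above that background. The log2 fold change of Keap1 in Scly KO was 0.33 (SE 0.205) from edgeR. It was -0.023 without S7 and S8, where S9 alone stands for KO MS. The interaction tests whether the genotype difference depended on diet. There, 0 of 9 members reached an unadjusted p under 0.05 from edgeR in either direction. Of all 12009 genes, 252 (2.1%) were higher and 556 lower at that threshold. The interaction was 1.51 (SE 0.780) for Srxn1, 0.65 (SE 0.386) for Ephx1 and 0.57 (SE 0.572) for Osgin1 on the log2 scale, each with an adjusted p of 0.650 to 0.709 from edgeR, and 0.0066 for Srxn1 without S12. For Hmox1 it was 0.88 (SE 0.657), and -0.23 without S12. For Nqo1 it was 0.34 (SE 0.624), -0.017 without S12 and 1.36 without S7 and S8. For Keap1 it was 0.29 (SE 0.291), and -0.072 without S7 and S8. limma-voom called 0 of 9 for the interaction and 17.3% of all genes. These libraries do not show whether the genotype difference of a member depended on diet.

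Levels were compared between genes per kb of merged exon length. In WT, Ephx1 was highest at 73.0 ± 17.5 CPM per kb (SD, n = 6), followed by Gclc, Gclm, Nfe2l2 at 15.0 ± 0.974, Srxn1 at 10.4 ± 0.977, Osgin1 at 9.97 ± 3.32, Keap1 at 7.87 ± 0.588, Hmox1 at 7.06 ± 0.722 and Nqo1 at 3.26 ± 1.12, with Slc7a11 at 0. Ranges over the 6 WT libraries overlapped for Ephx1 and Gclc, for Gclm and Nfe2l2, for Srxn1 and Osgin1, for Osgin1 and Keap1 and for Keap1 and Hmox1. Compared within each library, Ephx1 was above Gclc in 6 of 6 WT libraries, whereas the order of the other overlapping neighbours was mixed: the member with the higher mean was above the next in 4 of 6 libraries for Srxn1 and Osgin1 and in 5 of 6 for each of the other 3 pairs. In S12 Srxn1 reached 80.0 CPM per kb, within the range of Ephx1 in WT (51.9 to 95.5).

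**Figure D3:**
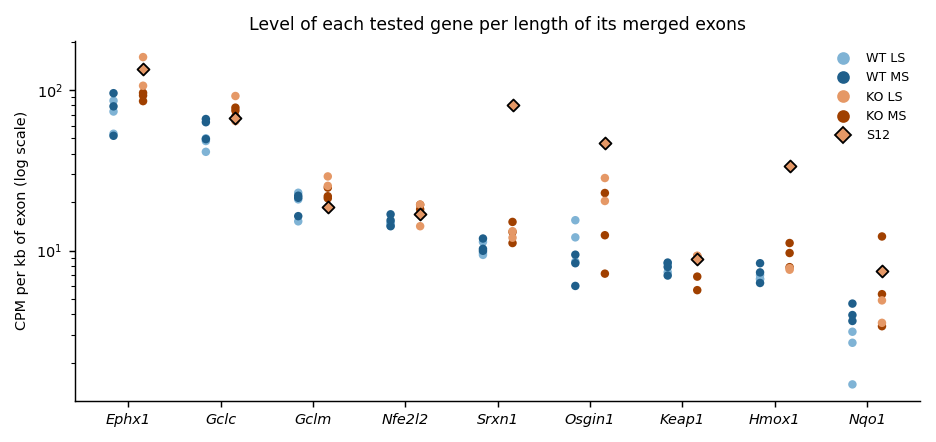
CPM per kb of merged exon (y axis, log scale) for the 9 tested members, ordered by their mean in WT (x axis), with WT libraries to the left and Scly KO libraries to the right of each position and S12 as a black-edged diamond. Srxn1, Osgin1 and Hmox1 in S12, at 80.0, 46.6 and 33.4, stand above all their other libraries.

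Of 38 further targets of NRF2, 36 were tested and 0 passed the adjusted threshold from edgeR in any comparison. DESeq2 called 2 on low selenium (Abcc3 and Entpd5) and 2 averaged over diets (Abcc3 and Gsta1), against 0.391% and 0.225% of all genes. limma-voom called 3 in each (Abcc3 and Aox1 in both, with Entpd5 or Gsta1), against 0.749% and 0.566%. In the other comparisons limma-voom called 3 between the genotypes on adequate selenium, 13 between the diets in Scly KO, 4 for the interaction and 0 between the diets in WT, against 7.54%, 49.9%, 17.3% and 0.15% of all genes. Between the genotypes on low selenium 23 of 36 were above 0, 12 were higher and 1 lower at an unadjusted p under 0.05, against 5.78% and 5.47% of all genes, and the median was 0.21. Without S12, 6 were higher and 0 lower, against 2.02% and 3.77% of all genes. The 4 with the smallest p were Abcc3, Gsta1, Entpd5 and Ugdh. Abcc3, a conjugate export pump of the basolateral membrane, was at 46.2, 43.6 and 44.2 CPM in WT LS, 56.7, 41.7 and 50.2 in WT MS, 108, 158 and 84.8 in KO LS and 72.7, 70.9 and 160 in KO MS. All 6 KO libraries were above all 6 WT libraries, which held for none of the members. Averaged over diets its log2 fold change was 1.21 (SE 0.231), with an adjusted p of 0.257 from edgeR, 0.000963 from DESeq2 and 0.000708 from limma-voom, and it was 1.29 without S12. In S12, 12 of the 38 were the highest of all libraries and 11 the lowest, against 26.1% and 25% of all tested genes. The 38 summed to 9150 CPM in S12 and to between 11400 and 20200 elsewhere. Mgst1, 1 of those lowest there, was at 625 CPM in S12 and between 2140 and 5660 elsewhere. Gsta1, a glutathione transferase, was at 31.5 CPM in S12 and at most 3.06 in the other 11. It may share reads with its near copy Gsta2, and whether it does was not tested. Ugdh, which makes UDP-glucuronic acid, was at 302 CPM in S12 and between 68.8 and 120 elsewhere, and its log2 fold change on low selenium was 1.20 (SE 0.332), and 0.54 without S12. Entpd5, a nucleotide phosphatase of the endoplasmic reticulum, had 0.96 (SE 0.258) and 0.92 without S12. Averaged over diets 8 of 36 were higher and 1 (Gstp1) lower at an unadjusted p under 0.05, against 2.46% and 1.28% of all genes, and the median was 0.08.

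Among 17 NRF2 partners and regulators, 15 were tested, 3 were higher at an unadjusted p under 0.05 on low selenium (Mafk, Gsk3b and Smarca4), against 5.78% of all genes, and 0 without S12, against 2.02%. Mafk, a small MAF partner of NRF2, had a log2 fold change of 0.89 (SE 0.314) and 0.43 without S12, and Gsk3b, a kinase that can mark NRF2 for destruction, had 0.92 (SE 0.337) and 0.78 without S12. Of 16 genes of glutathione synthesis and use, 15 were tested, 5 were above 0 on low selenium and the median was -0.15, while 9 were above 0 and the median was 0.11 without S12, so the direction of this list turned with 1 library. At an unadjusted p under 0.05, 3 were higher (Slc3a2, Gsr and Ggct) and 2 lower, against 5.78% and 5.47% of all genes, and 0 were higher and 0 lower without S12, against 2.02% and 3.77%.

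Targets of other pathways, and heme and iron genes, none of them members, were set beside the members. Of 15 targets of ATF4, the amino acid stress factor that also drives Slc7a11, 11 were highest in S12, as were 26.1% of all tested genes, and their summed level was 1150 CPM there and between 337 and 595 elsewhere. Asns, which makes asparagine, was at 20.0 CPM in S12 and at most 1.38 in the other libraries, and its log2 fold change on low selenium was 2.97 (SE 1.02) with S12 and 0.0085 without it. Of the ATF4 targets 13 were tested, with 8 higher at an unadjusted p under 0.05 on low selenium, against 5.78% of all genes, and 1 without S12, against 2.02%. On low selenium 12 of the 13 were above 0, where 54.2% of all genes were. Their median was 1.44, and 0.16 without S12. Of 20 targets of CAR and PXR, which share Ephx1, 16 were tested, 5 were higher and 1 lower on low selenium at that threshold, against 5.78% and 5.47% of all genes, and 6 and 0 without S12, against 2.02% and 3.77%. Of the 16, 14 were above 0 on low selenium, with a median of 0.45, and 0.55 without S12. Averaged over diets 13 were above 0, where 55.8% of all genes were. There 5 were higher at that threshold, against 2.46% of all genes, and 8 without S12, against 1.57%. Values mostly above 0 were thus not particular to the members. Of 17 heme and iron genes, chosen because Hmox1 degrades heme, 14 were lowest in S12, as were 25% of all tested genes. On low selenium 0 were higher or lower at an unadjusted p under 0.05 from edgeR, against 5.78% and 5.47% of all genes. Without S12, 1 was higher, against 2.02%. The part of the bile duct, stellate cell and ATF4 values of S12 in the levels of Srxn1, Hmox1, Osgin1 and Slc7a11 was not tested.

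**Figure D4:**
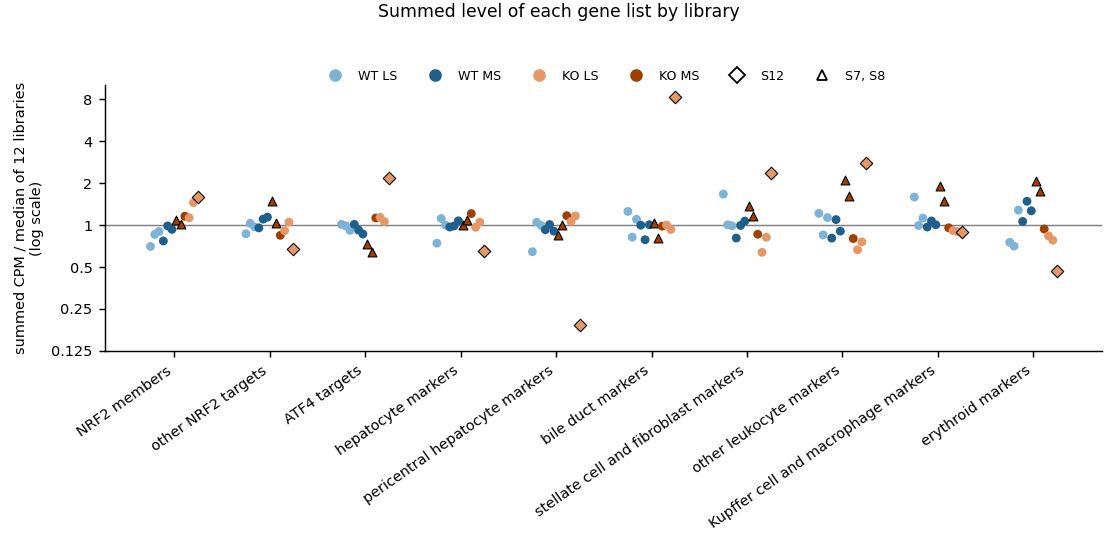
Summed CPM of each gene list in each library divided by the median of the 12 libraries (y axis, log scale) for 10 lists (x axis). S12 (diamond) is at 318 CPM for bile duct markers against 29.8 to 47.6 elsewhere and at 1440 for pericentral markers against 4820 to 8740, and S7 and S8 (triangles) are highest for erythroid markers.

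How the members moved together was described by Pearson correlation of log2 CPM over the 12 libraries, with no test, since all points share the library, its depth and its group. Over 36 pairs of tested members the closest were Hmox1 and Srxn1, at 0.965, and at 0.672 without S12. Without that library the closest pairs were Gclm and Ephx1 at 0.916 and Gclc and Ephx1 at 0.832. Against the mean of the 9 members, which includes the member itself, Srxn1 was closest at 0.872 and Keap1 least close at 0.266. Without S12 the closest were Gclc at 0.89, Ephx1 at 0.881 and Srxn1 at 0.868, and Keap1 was again least close, at 0.135. Outside the lists, the 5 genes most like that mean over 12 libraries were Acot2 (0.929), Csf3r (0.926), Ano6 (0.917), Cadm1 (0.914) and Mlst8 (0.899). All 5 were highest in S12, as Acot2 was at 68.6 CPM there and between 1.28 and 12.0 elsewhere. Without S12, a setting added once the data had been seen, the 5 were Fig4, Zfp667, Hes1, Retsat and Cd300e, none of which was among the first 5.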

How the data were processed

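Groups were taken from the labels (2 genotypes, 2 diets, 3 libraries each), and each count column carries its group and library number. According to the study, Cutadapt trimmed the reads, STAR aligned them to mm10 and they were counted per gene by Partek E/M, from directional libraries of poly(A) RNA. The submitters' processing notes also name FastQC and DESeq2, without versions. As deposited by the authors, the estimated counts were not scaled, and 89.8% of them were whole numbers. A second deposited table of the authors' own DESeq2 comparisons (p-values, FDR and fold changes) was not used. E/M divides reads that fit several genes, so near-identical genes may share them.

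Counts were rounded, filterByExpr (minimum count 10) kept 12009 of 24795 genes, and library sizes were normalized by TMM. With edgeR 4.0.16 in R 4.3.3, a quasi-likelihood model was fitted to the 4 groups, with Benjamini-Hochberg adjustment over all tested genes and a threshold of 0.05. SE are the fold change divided by the root of the F statistic. Exon lengths are merged exons of GENCODE transcripts on the same build, and promoter windows are from RefSeq. With 3 libraries a group, an SE rests on few libraries. Alternatives were DESeq2 1.42.0, limma-voom (limma 3.58.1) with sample quality weights, RLE and upper-quartile factors, other filters, only the groups compared, unrounded counts, leaving out each single library, S7 and S8 left out (with and without S12), Rn45s left out, and a trend over length and GC content removed (splines with 4 degrees of freedom).

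The scripts were tested on simulated counts with known changes between the genotypes on low selenium. edgeR called 8 of 50 genes changed by 2-fold and 49 of 50 changed by 4-fold. A count of 0 called members therefore does not show that changes of 2-fold or less are absent. The members and gene lists were chosen with earlier results of these data known. The text names the 10 members in every library, up to 4 genes of smallest p in a list, Scly, and the 5 genes most like the members. Other genes named, such as Slc3a2, Rn45s and Asns, and the values of single libraries were chosen after they were seen. Of the value columns, 0 were left without a group.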

Additional observations from a re-analysis of the deposited data

Results flagged for a closer look

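Slc7a11 was left out of the main tests by the filter on low counts, and its signal in 1 library lies outside the main measurement. With S7 and S8 left out, the gene passed that filter through its counts in S12, so 10 members were tested in that setting. Slc7a11 reached 13.4 CPM in S12, a KO LS library, from 241 counts. All 6 WT libraries, which serve as controls, and 4 of the other 5 Scly KO libraries held 0 counts, and S7 held 2. S12 was also the library with the highest Hmox1, Srxn1 and Osgin1, and its bile duct markers summed to 318 CPM. How these values relate was not tested. Groups of 3 libraries are too small for a test of single outlying values.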

How the results depend on the processing

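The settings covered 39 log2 fold changes of members, all 9 in the 3 genotype comparisons and some for diet and the interaction. For diet these were Nqo1, Gclc and Osgin1 in WT, and Hmox1, Srxn1, Osgin1, Ephx1 and Nqo1 in Scly KO. For the interaction they were Hmox1, Srxn1, Osgin1 and Ephx1. Under 24 alternative settings 897 of 923 values kept their direction and side of the threshold, 22 turned direction and 4 passed the threshold. No member passed the threshold in the main fit, so none could lose a call, and 897 is not a measure of stability. Kept values could still shrink, as Srxn1 went from 1.80 to 0.29 on low selenium without S12. Among these 39, values of Keap1, Nqo1, Hmox1, Srxn1 and Osgin1 turned. Keap1 was at -0.0835 on low selenium, 0.065 on adequate selenium and -0.00924 averaged over diets with the length and GC trend removed, at 0.24 on adequate selenium without S7 and S8 and 0.245 without S7, S8 and S12, and between -0.308 and 0.0568 on adequate selenium and -0.0597 and 0.116 over diets with single libraries left out. Nqo1 was at -0.29 and -0.28 on adequate selenium in those settings, and for the diets in Scly KO at 0.64, 0.32 and, without the trend, 0.50, and between -0.74 and 0.29 with single libraries left out. Srxn1 in Scly KO was at -0.0514 without S7, S8 and S12, and between -0.066 and 1.82 with single libraries left out. Hmox1 in Scly KO was at -0.236 with limma-voom, -0.0451 without S7, S8 and S12 and between -0.331 and 1.10 with single libraries left out, and in the interaction at -0.173 with limma-voom and between -0.231 and 1.21 with single libraries left out. Osgin1 in the interaction was at -0.14 without S7 and S8 and -0.52 without S7, S8 and S12. The causes were not tested.

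The counts of members below show how far a count moved with the setting. Where no share of all genes is beside a count, it says nothing particular to the members. Called members went from 0 to 1 with limma-voom averaged over diets, against 0.566% of all genes. In Scly KO they went to 3 for diet with limma-voom, against 49.9% of all genes, and to 0 to 2 with single libraries left out (2 without S9). At an unadjusted p under 0.05, the count on low selenium was 3 with limma-voom and 3 to 6 with single libraries left out. On adequate selenium it was 1 with DESeq2, with no filter, without S7 and S8, without S7, S8 and S12 and with the trend removed, 2 with limma-voom, and 0 to 1 with single libraries left out. Averaged over diets it was 4 to 6 with single libraries left out. For diet in WT it was 3 with limma-voom, and 2 both with only the groups compared and without S7, S8 and S12. For diet in Scly KO it was 1 with DESeq2 and with only the groups compared, 0 without S7 and S8, with or without S12, 4 with the trend removed, and 0 to 4 with single libraries left out (0 without S12, 1 without S8, 4 without S10). For the interaction it was 1 with limma-voom, no filter, without S7 and S8 and with the trend removed, and 0 to 1 with single libraries left out. No paired analysis was possible because the library columns carry no replicate number from the labels. The adjusted p of DESeq2 was missing for 57 genes in 5 comparisons and for 9318 in the diet comparison of Scly KO. Low depth limits Nqo1, with 10 counts in S1, and Slc7a11.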
